A study of Macaca mulatta with 449 samples.

Results

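The steroid hormone receptors described here are 5 nuclear receptors of the rhesus macaque brain: the oestrogen receptors ESR1 (ENSMMUG00000019045) and ESR2 (ENSMMUG00000022839), the progesterone receptor PGR (ENSMMUG00000011846), the glucocorticoid receptor NR3C1 (ENSMMUG00000000421) and the mineralocorticoid receptor NR3C2 (ENSMMUG00000014955). They were taken by symbol, each symbol matched 1 gene, and together they are 5 of the 30807 genes in the count table. RNA depleted of ribosomal RNA was sequenced from 51 sub-regions of 8 animals, which gives 408 samples. The cerebral cortex contributed 31 sub-regions, and the other 20 belonged to 15 further region groups. Of the 8 Macaca mulatta, Rhesus 4 (3.2 years) and Rhesus 10 (5 years) were young females, Rhesus 7 (4 years) and Rhesus 8 (3.8 years) young males, Rhesus 6 (10 years) and Rhesus 11 (9.8 years) mid-aged females, and Rhesus 2 and Rhesus 3 (both 10 years) mid-aged males. No genotype or treatment, hormone level or stage of the reproductive cycle is given in the sources used here. A sample is a dissected piece of tissue, so fewer cells of a type and less RNA per cell cannot be told apart.

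Steroid hormones cross the cell membrane and bind receptors that are themselves transcription factors. Without hormone, the receptors sit in complexes with chaperones such as the HSP90 proteins, and with hormone they bind response elements in DNA and recruit coregulators. In the brain, ESR1, ESR2 and PGR are best known from the hypothalamus and pituitary, where ovarian steroids feed back on gonadotropin release, and oestrogen is a known inducer of PGR. NR3C2 binds cortisol with higher affinity than NR3C1 does and is known for its high level in the hippocampus, whereas NR3C1 is found in nearly all cells and mediates the feedback of cortisol on the stress axis.

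Between 7784678 and 31083490 reads were counted on genes per sample, with a median of 10698602. NR3C1 had 101 to 2005 counts and NR3C2 22 to 1094 counts in each of the 408 libraries. The other receptors were far less deeply counted. ESR1 had 3 counts or fewer in 130 libraries, PGR in 258 and ESR2 in 296, and 11, 45 and 102 libraries respectively held no count of them. Levels are given as CPM (read counts divided by the library total and brought to a common scale with the TMM factors of edgeR), and CPM of different genes are not compared, since gene lengths were not used here. For region groups with several sub-regions the counts of 1 animal were summed, so n = 8 is always the number of animals.

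The labels were checked on marker genes. In the pituitary (PIT), the 8 matched markers of the anterior pituitary summed to between 31931 and 351174 CPM, against at most 38.1 CPM in the cortex, and the markers of oligodendrocytes to at most 51.5 CPM. In the hypothalamus (HTHA), 8 markers of hypothalamic neurons summed to between 659 and 3210 CPM, against at most 15.4 CPM in the cortex. In the hippocampus, 7 markers of its neurons summed to 236 to 287 CPM, against 188 to 279 CPM in the cortex. The striatum had a median of 534 CPM, so these markers did not set the hippocampus apart. Neuron markers summed to 332 CPM in the lowest library of the medulla oblongata, where the group median was 5778 CPM. The hypothalamus library of Rhesus 6 stood apart. Its 7 markers of cortical excitatory neurons summed to 1877 CPM, where the other 7 hypothalamus libraries had 81.8 to 173 CPM, and its markers of hypothalamic neurons had the lowest sum. The hypothalamus library of Rhesus 3 had the highest sum of oligodendrocytes markers, 34990 CPM. Differences between the hypothalamus and the cortex or the pituitary, and sex differences in the hypothalamus, are therefore given with and without Rhesus 6 for each receptor they name.

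Each receptor had its own order of region groups. All 5 differed between the 16 region groups by edgeR's quasi-likelihood F test with the animal as a block (Benjamini-Hochberg adjusted p, written FDR, at most 8.82e-11), but 99.7% of all 16829 genes tested passed the same test, so that this alone does not set the receptors apart. Enrichment in 1 region group (F test at FDR < 0.05 and more than 2-fold above each other group) was met by 11.5% of genes. It was met by ESR1 in the pituitary and PGR in the hypothalamus. ESR2 was highest in the olfactory bulb (OB), NR3C1 in the cerebellum (CB) and NR3C2 in the hippocampus (HIP), each by less than 2-fold over the next group. For NR3C1 the cerebellum led the corpus callosum by only 0.04 on the log2 scale. Without Rhesus 3, or without Rhesus 8, the corpus callosum was highest instead.

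**Figure D1:**
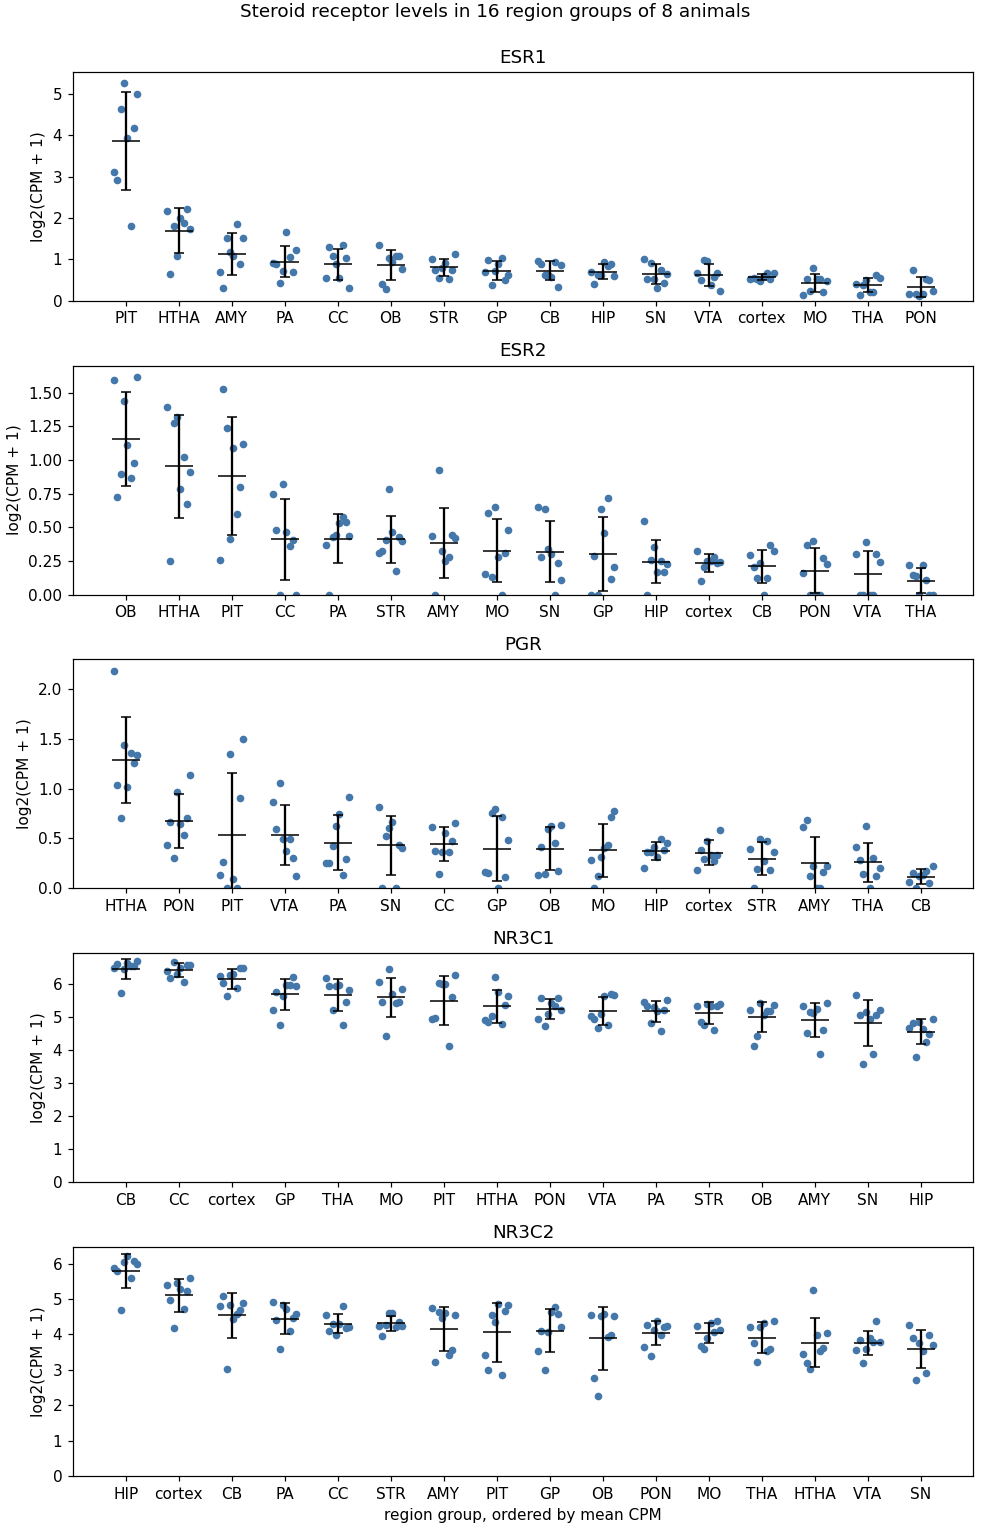
Levels of the 5 receptors, as log2(CPM + 1), in 16 region groups, with 1 point per animal and a bar at the mean ± SD of 8 animals. ESR1 in PIT (2.48 to 37.7 CPM) and PGR in HTHA (0.63 to 3.53 CPM) have the highest means of their gene. Their ranges overlap those of other groups, with ESR1 up to 3.67 CPM in HTHA and PGR up to 1.81 CPM in PIT. The mean of NR3C1 is lowest where that of NR3C2 is highest, in HIP.

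ESR1 had its highest level in the pituitary. Its pituitary level was 37.7 CPM in Rhesus 6, 31.1 in Rhesus 11, 24.04 in Rhesus 4, 17.1 in Rhesus 10, 14.2 in Rhesus 7, 7.59 in Rhesus 2, 6.55 in Rhesus 3 and 2.48 in Rhesus 8. In the cortex it lay between 0.39 and 0.59 CPM in all 8 animals, so no pituitary sample overlapped the cortex. ESR1 was higher in the pituitary than in the cortex by 5.15 ± 0.33 (log2 fold change ± SE, edgeR, FDR 6.67e-29) and higher than in the hypothalamus by 2.84 ± 0.31 (FDR 2.35e-14). The difference from the hypothalamus, the next highest group, was between 2.47, without Rhesus 6, and 3.04, without Rhesus 2.

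The hypothalamus came second for ESR1. Its level there was lowest in Rhesus 3 (0.57 CPM) and Rhesus 6 (1.10 CPM), the libraries named above for their markers of other cells, and lay between 2.33 and 3.67 CPM in the other 6. The median of 2.59 CPM was above every cortical value. The difference from the cortex was 2.31 ± 0.31 (FDR 2.28e-10), and 2.34 ± 0.33 without Rhesus 6. The part of the other cell types in the spread between these libraries was not tested. In the amygdala (AMY), ESR1 ran from 0.24 over a median of 1.19 to 2.59 CPM, and was higher than in the cortex by 1.41 ± 0.33 (FDR 0.000259). It was above the range of the summed cortex in 7 of 8 animals, but single cortical libraries reached 1.79 CPM. In the striatum (STR), the cerebellum and the hippocampus the differences from the cortex were 0.65 ± 0.31 (FDR 0.064), 0.47 ± 0.32 (FDR 0.187) and 0.39 ± 0.31 (FDR 0.307). The lowest mean level of ESR1 was that of the pons (PON), 0.27 ± 0.22 CPM (SD, n = 8), where 5 of 8 libraries had 3 counts or fewer.

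ESR2, the other oestrogen receptor, had 3 leading groups instead of 1. In the olfactory bulb it lay between 0.66 and 2.07 CPM with a median of 1.06, in the hypothalamus between 0.19 and 1.62 with a median of 0.96, and in the pituitary between 0.19 and 1.89 with a median of 0.94. The summed cortex had 0.07 to 0.25 CPM, with single cortical libraries up to 0.84 CPM. The olfactory bulb was above the summed range in every animal, whereas the lowest hypothalamus and pituitary libraries fell within it. Those libraries held 2 counts each. ESR2 was higher than in the cortex by 2.44 ± 0.36 in the hypothalamus (FDR 6.78e-09) and by 2.43 ± 0.37 in the pituitary (FDR 3.82e-09). Without Rhesus 6 the hypothalamic difference was 2.34 ± 0.39.

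Between the pituitary and the hypothalamus ESR2 differed by -0.01 ± 0.49 (FDR 0.989), or by 0.15 ± 0.42 without Rhesus 6 (FDR 0.752), and the ranges overlapped almost wholly. All 8 thalamus (THA) libraries had 3 counts of ESR2 or fewer, and the mean there was 0.077 ± 0.070 CPM (SD, n = 8). In the striatum the difference from the cortex was 0.90 ± 0.36 (FDR 0.028), under the 2-fold threshold. It was 1.00 without Rhesus 2 and 1.07 without Rhesus 8, which then passed.

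PGR, the receptor of progesterone, was highest in the hypothalamus. The libraries had 0.63 CPM in Rhesus 4, 1.02 in Rhesus 7, 1.05 in Rhesus 3, 1.39 in Rhesus 10, 1.53 in Rhesus 11, 1.55 in Rhesus 8, 1.70 in Rhesus 6 and 3.53 in Rhesus 2. All were above the range of the summed cortex, 0.14 to 0.50 CPM, but single cortical libraries reached 1.01 CPM. Rhesus 2 was far above the other hypothalamus libraries. The difference from the cortex was 2.42 ± 0.36 (FDR 9.39e-09), and 2.43 ± 0.40 without Rhesus 6. Over the pons, the next group, PGR was higher by 1.32, but by 0.96 without Rhesus 2, when its enrichment no longer met the 2-fold rule.

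In the pituitary, 5 of 8 libraries held 3 counts of PGR or fewer and the other 3, all of females, held 13 to 17 counts. PGR was lower there than in the hypothalamus by -1.61 ± 0.43 (FDR 0.000482), and by -1.96 ± 0.49 without Rhesus 6 (FDR 0.000232). Its difference from the cortex was 0.81 ± 0.42 (FDR 0.067), and without Rhesus 7 it was 1.00 ± 0.44 (FDR 0.031), past both thresholds. The cerebellum was the group with the least PGR, with 0 to 4 counts per animal against 57 to 172 in the summed cortex, or 0.085 ± 0.055 CPM against 0.29 ± 0.11 CPM (SD, n = 8). That difference was -1.72 ± 0.50 (FDR 0.00171).

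NR3C1, the glucocorticoid receptor, was detected throughout the brain, and its highest and lowest region groups differed far less than those of ESR1. The cerebellum had 89.4 ± 16.03 CPM (SD, n = 8), the corpus callosum (CC), a white matter tract, 85.6 ± 12.4 CPM and the cortex 72.5 ± 14.4 CPM. The hippocampus was at the other end, with 23.3 ± 5.56 CPM. The hippocampal values ran from 12.9 CPM in Rhesus 4 over a median of 24.4 to 29.6 CPM in Rhesus 11, and the cortical values from 48.7 to 89.7 CPM with a median of 75.8. These ranges of summed counts did not overlap, but single cortical libraries went down to 11.1 CPM in Rhesus 4. NR3C1 fell by 1.64 ± 0.18 on the log2 scale from cortex to hippocampus (FDR 3.53e-13).

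It was also lower than in the cortex in the amygdala, by -1.23 ± 0.19 (FDR 2.55e-08), and in the striatum, by -1.06 ± 0.18 (FDR 3.22e-07). The hypothalamus (-0.82 ± 0.18, FDR 6.40e-05) and the pituitary (-0.56 ± 0.18, FDR 0.00344) passed the FDR but not the 2-fold threshold. The hypothalamic NR3C1 level was highest in Rhesus 6, 73.9 CPM against 26.9 to 53.1 CPM in the other 7, and the difference from the cortex was -0.99 ± 0.20 without that animal. For the cerebellum the difference from the cortex was 0.32 ± 0.18 (FDR 0.107).

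NR3C2, the mineralocorticoid receptor, had the hippocampus at the top. Its hippocampal level was 73.0 CPM in Rhesus 7, 67.3 in Rhesus 10, 65.3 in Rhesus 6, 62.5 in Rhesus 11, 58.5 in Rhesus 2, 55.0 in Rhesus 3, 47.3 in Rhesus 8 and 24.9 in Rhesus 4. The cortex of the same animals had 17.4 to 47.2 CPM, lowest again in Rhesus 4, and in all 8 animals the hippocampus was above the cortex. The difference was 0.71 ± 0.22 (FDR 0.00564), which passes the FDR but is under 2-fold. NR3C2 was lower in the hypothalamus than in the cortex, by -1.31 ± 0.23 (FDR 5.39e-07).

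In the hypothalamus, Rhesus 6 had 37.2 CPM of NR3C2 where the other 7 had 7.16 to 15.5 CPM, and without this animal the difference was -1.62 ± 0.24 (FDR 1.30e-08). In the pituitary it was -0.91 ± 0.23 (FDR 0.000163), in the amygdala -0.88 ± 0.23 (FDR 0.00101), in the striatum -0.82 ± 0.22 (FDR 0.00108) and in the cerebellum -0.53 ± 0.22 (FDR 0.030), all under 2-fold. Without Rhesus 4 the pituitary and amygdala differences were -1.14 and -1.11, past the threshold, and with the study's looser filter on low counts the pituitary difference also passed, at -1.08 ± 0.23 (FDR 1.32e-05). The lowest mean of NR3C2 was in the substantia nigra (SN), 11.8 ± 4.23 CPM (SD, n = 8).

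**Figure D2:**
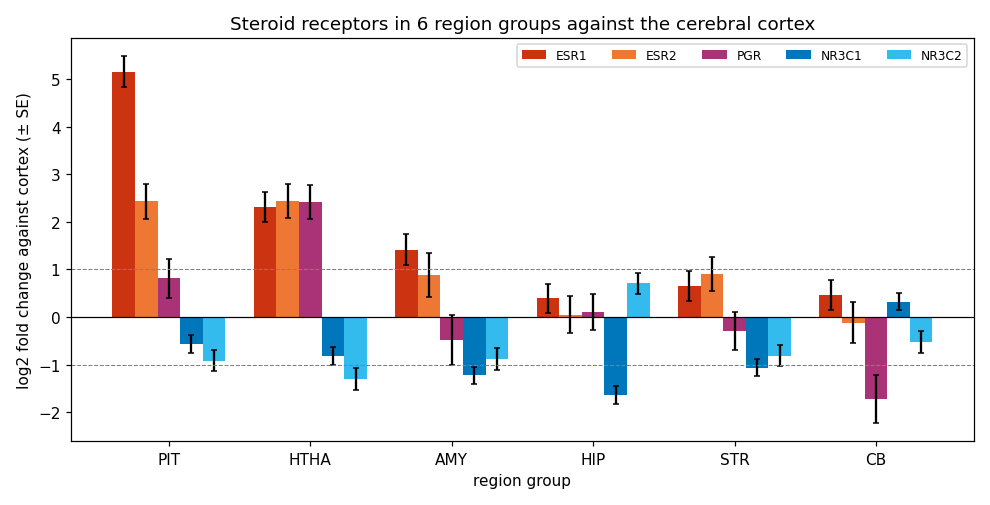
Log2 fold change of each receptor between 6 region groups and the cortex, from edgeR, with bars for the estimate, whiskers for its SE and dashed lines at 2-fold. ESR1 in PIT reaches 5.15, ESR1, ESR2 and PGR in HTHA lie between 2.31 and 2.44, and in HIP NR3C1 lies at -1.64 and NR3C2 at 0.71.

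Counted over the receptors, the hypothalamus had 3 higher and 1 lower than the cortex at FDR < 0.05 and over 2-fold, where 11.0% of all genes were higher and 7.62% lower. The pituitary had 2 of 5 higher and 0 lower, against 21.4% and 23.3% of all genes. With ESR1 higher and NR3C1 lower, the amygdala had 1 call in each direction, against 5.03% higher and 4.5% lower. The hippocampus and the striatum each had NR3C1 lower and 0 higher, where 6.31% and 8.18% of genes were lower and 6.05% and 8.73% higher. The cerebellum had PGR lower and 0 higher, where 14.9% were lower and 10.8% higher. Between pituitary and hypothalamus, 1 was higher and 1 lower, against 16% and 21.7%. These comparisons with the cortex share the same cortical samples.

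The order of the region groups was also tested pair by pair. Exact two-sided sign-flip permutation tests over the 8 animals, on log2(CPM + 1) and adjusted over the 15 neighbouring pairs of each gene, left 0 pairs for every receptor. The smallest p they can give is 0.0078, or 0.117 after adjustment for a lone pair, so this count of 0 does not show that neighbours were alike. In the fit across all genes, ESR1 in the pituitary over the hypothalamus and NR3C2 in the hippocampus over the cortex, both neighbouring pairs, passed the FDR as given above. Both the pairs and their direction came from the order of means in these same animals, so their unadjusted p are a description. The pairs with an unadjusted p below 0.05 were 2 for ESR1, 0 for ESR2, 1 for PGR, 2 for NR3C1 and 2 for NR3C2. The ESR1 pairs were the pituitary over the hypothalamus (higher in 7 of 8 animals, exact p = 0.0156) and the hypothalamus over the amygdala (7 of 8, exact p = 0.0234). The PGR pair was the hypothalamus over the pons (8 of 8, exact p = 0.0078). For NR3C1, the corpus callosum was above the cortex in 8 of 8 animals (exact p = 0.0078) and the cortex above the globus pallidus (GP) in 7 of 8 (exact p = 0.0156). For NR3C2, the hippocampus was above the cortex in 8 of 8 animals (exact p = 0.0078) and the cortex above the cerebellum in 7 of 8 (exact p = 0.0156). ESR2 in the olfactory bulb, hypothalamus and pituitary formed a run whose neighbours had an exact p of 0.156 and 0.836.

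The ratio of the corticosteroid receptors within a library does not depend on depth, and its change between tissues does not depend on gene length. Relative to the cortex of the same animal, the log2 ratio of NR3C2 to NR3C1 was 2.36 ± 0.34 higher in the hippocampus (SD, n = 8; lowest 2.00, highest 2.93), which is 5.13-fold. In the corpus callosum the ratio was lower in all 8 animals, by a mean of -1.08 ± 0.45, and so it was in the cerebellum (-0.90 ± 0.30), the thalamus (-0.75 ± 0.36), the hypothalamus (-0.56 ± 0.26) and the globus pallidus (-0.56 ± 0.31). Without Rhesus 6 the hypothalamus had -0.62 ± 0.22 (n = 7). The ratio was higher than in the cortex in 7 of 8 animals in the entorhinal and perirhinal cortex (PA, 0.33 ± 0.24) and in the amygdala (0.28 ± 0.39), and in 6 of 8 in the striatum (0.24 ± 0.45). This ratio was chosen after the levels had been seen and is given as a description.

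**Figure D3:**
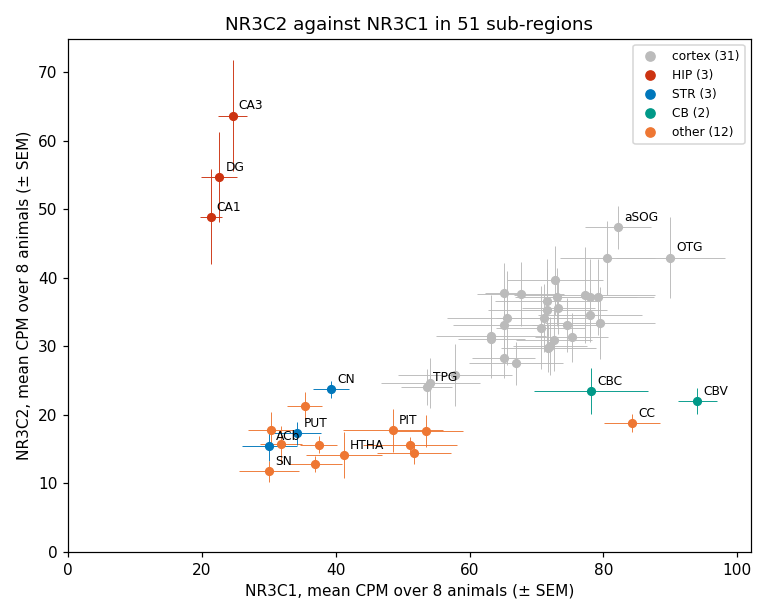
Mean CPM of NR3C2 against mean CPM of NR3C1 in 51 sub-regions, with SEM of 8 animals. The 3 hippocampal sub-regions lie apart with NR3C1 at 21.3 to 24.6 CPM and NR3C2 at 48.9 to 63.7 CPM, the cerebellum and corpus callosum lie at high NR3C1 with NR3C2 at 19.1 to 23.5 CPM, and the cortical points form 1 cloud.

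Within the hippocampus the pattern was shared by all 3 sub-regions. CA1, CA3 and the dentate gyrus (DG) were the 3 lowest of 51 sub-regions for NR3C1 (21.3 ± 4.65, 24.6 ± 6.17 and 22.6 ± 7.62 CPM, SD, n = 8) and the 3 highest for NR3C2 (48.9 ± 19.6, 63.7 ± 22.9 and 54.7 ± 18.5 CPM). Only NR3C1 and NR3C2 passed the filter on low counts here. Between CA1 and CA3 the differences were -0.20 ± 0.12 for NR3C1 (FDR 0.852) and -0.43 ± 0.20 for NR3C2 (FDR 0.702). CA1 against the dentate gyrus gave -0.06 ± 0.12 and -0.19 ± 0.20 (FDR 0.730 and 0.483), and CA3 against it 0.14 ± 0.12 and 0.24 ± 0.20 (FDR 0.363 and 0.372). By edgeR 0 of the 2 were called in each comparison, against 0.0203%, 3.53% and 3.02% of all genes. NR3C2 between CA1 and CA3 was the single test with an unadjusted p below 0.05, and DESeq2 called 0. The share of all genes at that p is not given here.

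Between sub-regions of the striatum and of the cerebellum, too, only NR3C1 and NR3C2 passed the filter on low counts. In the striatum the nucleus accumbens (ACb) had the least NR3C2, 15.4 ± 6.16 CPM, against 23.7 ± 3.46 CPM in the caudate nucleus (CN) and 17.3 ± 4.79 CPM in the putamen (PUT). NR3C2 was lower in the accumbens than in the caudate by -0.68 ± 0.19 (FDR 0.0087), and higher in the caudate than in the putamen by 0.50 ± 0.18 (FDR 0.047). NR3C1 was lower in the accumbens than in the caudate by -0.42 ± 0.15 (FDR 0.034). All were under 2-fold, so that 0 of the 2 receptors were called by edgeR or DESeq2 in any of the 3 striatal comparisons, which called 3.96% (accumbens against caudate), 8.75% (accumbens against putamen) and 4.82% (caudate against putamen) of genes. The numbers with an unadjusted p below 0.05 were 2, 0 and 1, for which the shares of all genes are not given here. NR3C1 was 94.1 ± 8.17 CPM in the cerebellar vermis (CBV) and 78.2 ± 24.1 CPM in the cerebellar cortex (CBC), a difference of 0.36 ± 0.20 (FDR 0.415), and that of NR3C2 was 0.06 ± 0.24 (FDR 0.912). Both tools called 0 of 2 there, where edgeR called 0.225% of genes. Of the 2, 0 had an unadjusted p below 0.05.

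Within the cortex, the lobes differed little in these receptors. NR3C2 had 40.9 ± 8.42 CPM in the occipital, 36.3 ± 11.5 in the parietal, 33.7 ± 10.8 in the temporal, 32.1 ± 9.65 in the frontal and 29.7 ± 11.4 in the limbic lobe (SD, n = 8 animals). ESR1 had 0.58 ± 0.10 CPM in the frontal and 0.35 ± 0.15 CPM in the occipital lobe. Over the 5 lobes NR3C2 (FDR 0.000482), ESR1 (FDR 0.0086) and ESR2 (FDR 0.035) passed edgeR's F test, and NR3C1 (FDR 0.083) and PGR (FDR 0.148) did not. That is 3 of 5, where 61.5% of all genes passed. With no block for the animal, 0 of 5 passed. The share of all genes that passed without the block is not given here. ESR2 did not pass without Rhesus 2, Rhesus 3, Rhesus 7 or Rhesus 8, whereas PGR passed without Rhesus 2 (FDR 0.049) and NR3C1 without Rhesus 11 (FDR 0.011).

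Over the 31 cortical sub-regions, ESR1 (FDR 2.39e-06), NR3C1 (FDR 0.000922) and NR3C2 (FDR 0.00249) were tested and passed, as did 75.0% of genes. With no block for the animal 1 of the 3 passed, and with the study's looser filter all 5 were tested and passed. ESR1 was highest in the anterior cingular gyrus (ACG, 0.91 ± 0.54 CPM) and the temporal polar gyrus (TPG, 0.83 ± 0.37 CPM), and ESR2 in the temporal polar gyrus (0.42 ± 0.23 CPM). The same gyri were the lowest for NR3C1 (54.2 ± 21.001 and 53.6 ± 10.8 CPM) and for NR3C2 (24.6 ± 10.3 and 24.1 ± 7.39 CPM). The highest NR3C1 was in the occipito-temporal gyrus (OTG, 90.0 ± 22.8 CPM), and the highest NR3C2 in the anterior superior occipital gyrus (aSOG, 47.3 ± 8.81 CPM), which had the lowest ESR2 (0.058 ± 0.052 CPM). These gyri were named after their values were seen.

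Between animals the cortical levels of NR3C1 and NR3C2 spanned a wider range than the means of the cortical sub-regions, which lay between 53.6 and 90.0 CPM for NR3C1 and between 24.1 and 47.3 CPM for NR3C2. The median NR3C1 over 31 sub-regions was 43.0 CPM in Rhesus 4, 54.3 in Rhesus 8, 65.2 in Rhesus 3, 72.5 in Rhesus 2, 78.1 in Rhesus 6, 79.0 in Rhesus 7, 90.1 in Rhesus 11 and 90.4 in Rhesus 10. The median NR3C2 was lowest in the same 3 animals, with 13.97 CPM in Rhesus 4, 22.4 in Rhesus 8 and 29.6 in Rhesus 3, and 33.8 to 47.2 CPM in the other 5. Both low and high animals occur in each sex. Rhesus 4 had the lowest NR3C2 in 12 of 16 region groups and the lowest NR3C1 in 8, and Rhesus 8 the lowest NR3C1 in 7. In the cortex, Rhesus 4 had the highest sum of markers of neurons (11680 CPM, others 10641 to 11641) and of cortical excitatory neurons (3448 CPM, others 2254 to 2776), and the lowest of astrocytes (2746 CPM, others 2997 to 3456) and of oligodendrocytes (2551 CPM, others 2786 to 3339). The part of these markers in the receptor levels was not tested.

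**Figure D4:**
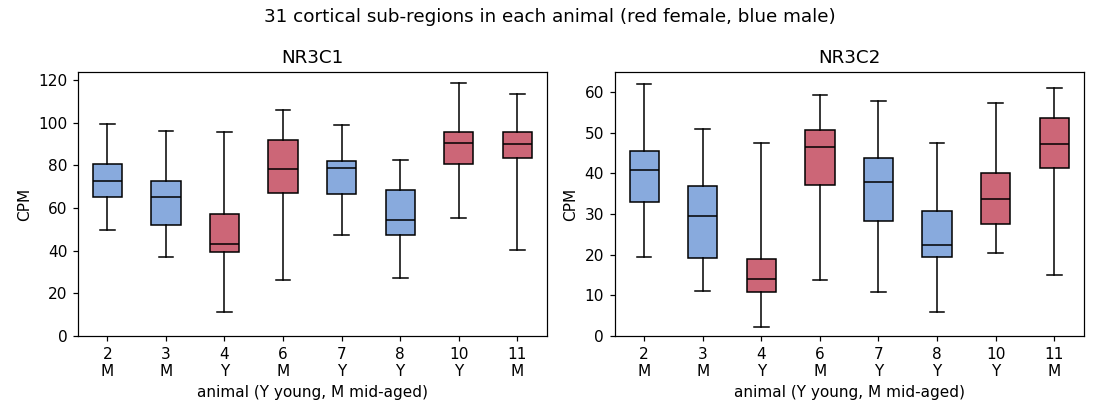
CPM of NR3C1 and NR3C2 in the 31 cortical sub-regions of each animal, with boxes from the lower to the upper quartile, a line at the median and whiskers to the lowest and highest sub-region. Rhesus 4 has the lowest median of both, 43.0 and 13.97 CPM.

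Sex was compared within each region group, 4 females against 4 males with age stage as a covariate. Of 47 receptor and region group pairs that passed the filter, edgeR called 0 at FDR < 0.1 and over 2-fold, against 0.105% of all gene and region group pairs. An unadjusted p below 0.05 was reached by 2 pairs, against 3.54% over all genes, and both were in the pituitary. DESeq2 called 1, ESR1 in the pituitary (FDR 0.00796). The share of all genes that DESeq2 called there is not given here. EdgeR's share there, 0.123% of all genes, cannot stand in for it.

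In the pituitary ESR1 had 27.5 ± 8.91 CPM in females and 7.71 ± 4.86 CPM in males (SD, n = 4 each). The lowest female, at 17.1 CPM, was above the highest male, at 14.2 CPM, which holds for 2.67% of all genes tested there. The difference was 1.83 ± 0.48 by edgeR (FDR 0.218). NR3C1 had 63.3 ± 11.9 CPM in females and 35.2 ± 20.3 in males, a difference of 0.89 ± 0.37 (FDR 0.227), and NR3C2 had 23.3 ± 3.41 and 12.8 ± 10.3 CPM, a difference of 0.98 ± 0.44 (FDR 0.235). Their groups overlapped through 1 male, Rhesus 7, with 64.1 CPM of NR3C1 and 28.1 CPM of NR3C2, where the other 3 males had 16.5 to 30.3 and 6.28 to 9.70 CPM. Without Rhesus 7, all 3 receptors were called, at 2.61 ± 0.24, 1.49 ± 0.17 and 1.69 ± 0.21 (FDR 0.000368, 0.000872 and 0.00108). That fit leaves out the male that made the overlap. The share of all genes it called is not given here, so these calls do not set the receptors apart.

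PGR in the pituitary was too low for the filter. It had 1.81 CPM in Rhesus 11, 1.55 in Rhesus 6 and 0.87 in Rhesus 10, but no count in the young female Rhesus 4, and 0 to 0.20 CPM in the males. With the looser filter of the study's methods (count above 1 in at least 3 samples) its difference was 3.46 ± 0.95 (FDR 0.240). ESR2 had 0.90 ± 0.46 CPM in females and 0.93 ± 0.75 in males, a difference of -0.0040 ± 0.69 (FDR 0.999) in which the SE exceeds the estimate.

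In the pituitary many genes had a low unadjusted p for sex, but few were called. By edgeR, 21.3% of the genes tested there had an unadjusted p below 0.05 for sex. At FDR < 0.1 and over 2-fold, 0.123% were called. The markers of the anterior pituitary, which include the prolactin gene PRL, summed to 351174 CPM in Rhesus 6 and 243570 in Rhesus 11, the females with the highest ESR1 and PGR, but to 33175 and 50678 CPM in the females Rhesus 10 and Rhesus 4, and to 31931 to 88156 CPM in the males. The 10 most abundant genes took 35.02% and 28.02% of the counts in Rhesus 6 and Rhesus 11, and 11.6% to 16.9% in the other 6. Markers of meninges and fibroblasts summed to 277 to 521 CPM and those of endothelial cells to 27.96 to 69.4 CPM, and both overlapped between the sexes. The part of these cells in the receptor levels was not tested.

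**Figure D5:**
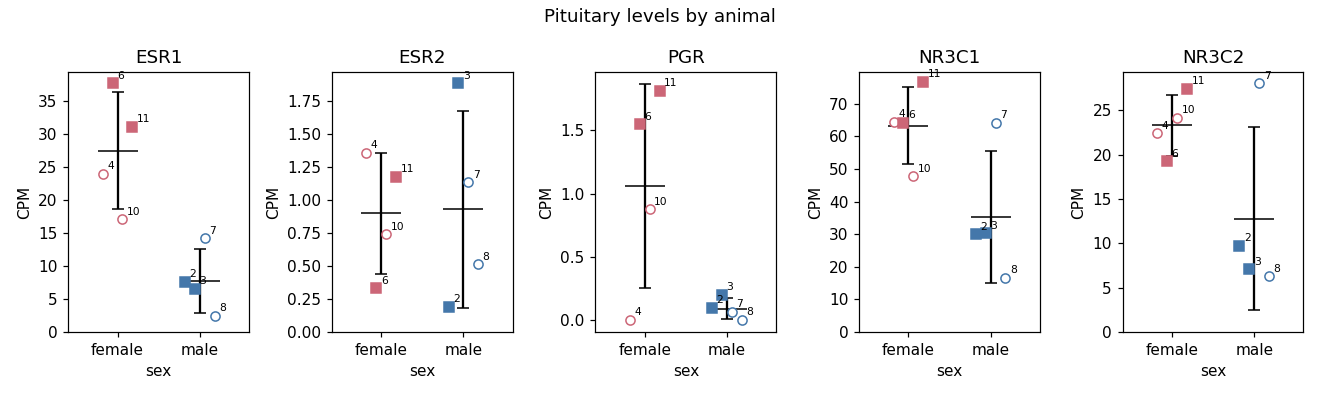
CPM of the 5 receptors in the pituitary of each animal, numbered, with females in red, males in blue, young animals as open circles and mid-aged animals as filled squares, and a bar at the mean ± SD of 4. ESR1 is higher in every female (17.1 to 37.7 CPM) than in every male (2.48 to 14.2 CPM), and the male Rhesus 7 lies among the females for NR3C1 and NR3C2.

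Outside the pituitary the sex differences ran from -0.57, for ESR1 in the cerebellum, to 0.55, for NR3C2 in the hypothalamus, PGR in the cortex and ESR1 in the amygdala. The NR3C2 difference in the hypothalamus rested on Rhesus 6 and was 0.065 ± 0.32 without that animal. The interaction of sex with region group, which tests whether a sex difference itself differs between groups, passed for 0 of 5 receptors by edgeR (0.683% of genes). ESR1 alone had an unadjusted p below 0.05 in edgeR (FDR 0.204), and DESeq2 was not run for it. Averages over all 16 region groups include the pituitary. For ESR1 the average log2(CPM + 1) was 0.99 ± 0.041 in females and 0.92 ± 0.093 in males (SD, n = 4 each, exact permutation p = 0.2). The exact p for sex of the other 4 receptors was between 0.286 and 0.971.

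Age stage was compared in the same way, 4 mid-aged with 4 young animals and sex held as the covariate. It also gave 0 called pairs of 47 by edgeR, against 0.0164% of all pairs, and 0 by DESeq2. An unadjusted p below 0.05 was reached by 4 pairs, all of NR3C1, against 5.73% over all genes. They were the substantia nigra (0.83 ± 0.34, FDR 0.450), the thalamus (0.58 ± 0.23, FDR 0.331), the hippocampus (0.52 ± 0.19, FDR 0.753) and the entorhinal and perirhinal cortex (0.44 ± 0.16, FDR 0.308), each higher in the mid-aged animals. Of all genes tested in these groups, 11%, 13.3%, 6.53% and 12.3% respectively had an unadjusted p below 0.05 for age. NR3C1 was higher in mid-aged animals in 11 of 16 groups, of which the hypothalamus (0.15 ± 0.32) had -0.093 ± 0.29 without Rhesus 6. With all 8 animals, the age difference of ESR1 in the pituitary was 0.28 ± 0.47 (FDR 0.953). Without Rhesus 7, ESR1 was called higher there in mid-aged animals (1.02 ± 0.23, FDR 0.093). The share of all genes called in that fit is not given here. The young group holds Rhesus 4 and Rhesus 8, named above for their low NR3C1. The interaction of age with region group passed for 0 of 5 by edgeR (1.36% of genes), with 0 at an unadjusted p below 0.05.

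Over the brain, NR3C1 was 5.57 ± 0.19 in mid-aged and 5.30 ± 0.36 in young animals, as mean log2(CPM + 1) of 16 groups (SD, n = 4 each; exact permutation p = 0.257). The lowest exact p was that of PGR, 0.52 ± 0.13 in mid-aged against 0.38 ± 0.035 in young animals (p = 0.114). With 4 animals against 4 the smallest possible p is 0.0286. After adjustment over the 10 tests of sex and age the lowest p was 0.476.

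Over the 51 sub-regions the oestrogen receptors had similar profiles. Pearson's r between the mean log2(CPM + 1) of ESR1 and ESR2 was 0.66 (Spearman's rho 0.75), and 0.71 without the pituitary. NR3C1 and NR3C2 had r = 0.32 and rho = 0.44. The oestrogen receptors and the corticosteroid receptors had r between -0.48 and -0.27. The sub-regions share animals, libraries and depth, and ESR2 has few counts, so these are descriptions without a test.

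The 5 genes with the most similar profile, of 13212 genes compared over 51 sub-regions, were named for each receptor by Pearson's r. For ESR1 they were GUCY2F (a guanylate cyclase), TMC2, NUCB2 (the precursor of nesfatin), KDELR1 (a receptor that returns proteins to the endoplasmic reticulum) and DKK4, with r from 0.92 to 0.94, which fell to between 0.59 and 0.73 without the pituitary. For ESR2 they were HFM1, CDH1 (E-cadherin), GPC3 (a glypican), ARHGEF16 and CYTL1, with r from 0.79 to 0.81. For PGR they were NKX2-4, SIM1, OTP and FEZF1, which are transcription factors of the developing forebrain, and OXT, the oxytocin gene, with r from 0.73 to 0.78. For NR3C1 they were UVRAG, C18H18orf54, ZCCHC2, MKRN2 and DNAJC13, with r from 0.85 to 0.86, and for NR3C2 CCDC47, FGFR1OP2, ZNF189, RAPGEF2 and FAM200A, with r from 0.83 to 0.88. Spearman's rho was lowest for the genes of PGR, from 0.15 to 0.40. It ran from 0.23 to 0.71 for those of ESR1 and from 0.51 to 0.66 for those of ESR2. For the genes of NR3C1 and NR3C2 it ran from 0.65 to 0.88.

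Other genes of steroid signalling were taken from 7 lists of 85 symbols, of which 69 matched a gene in the table. Among chaperones and co-chaperones of the receptors, 9 of 10 were tested. FKBP5, a co-chaperone that glucocorticoids induce, was higher than in the cortex in the pituitary, at 57.3 ± 23.8 against 8.87 ± 3.06 CPM (2.75 ± 0.19, FDR 1.82e-26), and was the single chaperone called there. In the hippocampus FKBP5 was again higher, by 1.29 ± 0.18 (FDR 1.55e-09), and 1 chaperone was lower, HSP90AB1, at 12.8 ± 1.48 against 53.8 ± 3.70 CPM (-2.08 ± 0.10, FDR 2.48e-37). In the hypothalamus edgeR called 0, with 4 at an unadjusted p below 0.05. The median log2 fold change of the list was -0.31, 0.14 and -0.09 in pituitary, hypothalamus and hippocampus, against 0.03, 0.01 and 0.02 over all genes. Of the coregulators, 9 of 10 were tested and edgeR called 0 in these 3 comparisons, with 5, 6 and 5 at an unadjusted p below 0.05 and medians of 0.20, -0.34 and -0.12. Calls of the lists are read against the shares of all genes given above. The share of all genes with an unadjusted p below 0.05 in these comparisons is not given here. The numbers at that p are therefore a description and do not set a list apart. DESeq2 was not read out for the lists. Without Rhesus 6 the hypothalamus had as many calls in each direction in each of the 7 lists as with that animal, an alternative chosen after seeing the data.

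Enzymes that make or convert steroids had 11 of 16 tested. In the pituitary 3 were higher and 5 lower (median -0.15), in the hypothalamus 2 higher and 1 lower (median 0.35), and in the hippocampus 0 higher and 2 lower (median -0.35). CYP19A1, the aromatase that makes oestrogens, had 1 count over the 8 pituitary libraries and 14724 over the cortex, or 0.217% of the cortical level once depth is allowed for (95% exact binomial interval 0.0055% to 1.21%, counting error only). STAR, which carries cholesterol into mitochondria, was at 0.33 ± 0.23 CPM in the pituitary against 1.68 ± 0.25 CPM in the cortex (-2.24 ± 0.33, FDR 1.17e-09). HSD11B2, which inactivates cortisol, was at 0.81 ± 0.38 against 0.13 ± 0.027 CPM (2.55 ± 0.33, FDR 1.51e-11).

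Of glucocorticoid-responsive genes, 6 of 11 were tested. The pituitary had 3 higher and 1 lower (median 1.00), the hypothalamus 0 and 1 (median -0.37) and the hippocampus 1 and 0 (median -0.47). In the pituitary CEBPD, a transcription factor, was higher by 3.19 ± 0.21 (FDR 1.43e-27) and ERRFI1, an inhibitor of EGF receptor signalling, by 1.54 ± 0.10 (FDR 1.84e-28). SGK1, a kinase that corticosteroids induce, was at 7.81 ± 1.56 CPM in the pituitary against 47.1 ± 3.89 CPM in the cortex (-2.59 ± 0.13, FDR 1.47e-37). The members thus moved in both directions.

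Of oestrogen-responsive genes, 9 of 10 were tested, with 5 higher and 1 lower in the pituitary (median 1.34), 2 higher in the hypothalamus (median 0.38) and 2 higher in the hippocampus (median 0.04). PRLR, the prolactin receptor, was at 7.56 ± 4.88 CPM in the pituitary against 0.20 ± 0.081 CPM in the cortex (5.17 ± 0.46, FDR 2.46e-19). IGFBP4, which binds insulin-like growth factors, was higher by 2.25 ± 0.24 in the pituitary (FDR 2.90e-15). CXCL12, a chemokine, was higher by 2.71 ± 0.23 in the hippocampus (FDR 7.30e-19), where ESR1 and ESR2 differed from the cortex by 0.39 and 0.05.

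Of other steroid-related receptors, 9 of 10 were tested. The pituitary had 4 higher and 1 lower (median -0.24), the hypothalamus 5 and 1 (median 1.14) and the hippocampus 2 and 2 (median -0.35). NR5A1, steroidogenic factor 1, and NR0B1, its partner, are known from the gonadotropin axis. In the pituitary NR5A1 was at 40.6 ± 13.6 against 0.19 ± 0.14 CPM (7.80 ± 0.43, FDR 1.25e-31) and NR0B1 at 8.38 ± 2.68 against 0.30 ± 0.11 CPM (4.86 ± 0.27, FDR 8.82e-33). NR5A2, a related receptor, was higher in the hypothalamus by 5.56 ± 0.56 (FDR 1.17e-15), from 0.033 ± 0.027 CPM in the cortex, and by 5.76 ± 0.60 without Rhesus 6.

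Of genes of the stress and reproductive axes, 12 of 18 were tested, with 7 higher and 3 lower in the pituitary (median 1.33), 3 and 2 in the hypothalamus (median 0.04) and 1 and 7 in the hippocampus (median -1.22). The largest differences were those of hormone genes of the pituitary. PRL had 104739 ± 121757 CPM there against 5.76 ± 9.28 CPM in the cortex (14.85 ± 1.09, FDR 1.29e-24). CGA, the common subunit of the glycoprotein hormones, had 2687 ± 1418 against 0.53 ± 1.26 CPM (13.73 ± 0.49, FDR 2.51e-48). LHB, the beta subunit of luteinizing hormone, had 476 ± 457 against 0.15 ± 0.070 CPM (11.57 ± 0.66, FDR 1.71e-32).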

How the data were processed

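RNA-seq was analysed from 51 sub-regions of 8 animals (408 samples). The authors trimmed samples of poor read quality with Trim Galore 0.4.4, aligned reads with HISAT2 2.0.5 to the rhesus build Mmul 8.0.1 and counted genes of Ensembl 91 with HTSeq 0.6.1; the strand setting is not given in the sources used here. The deposited values are raw read counts per gene. The midbrain and ATAC-seq samples were not analysed here, nor was RNA quality.

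Counts of an animal's sub-regions were summed per region group. TMM normalization, filterByExpr and quasi-likelihood tests of edgeR 4.0.16 (R 4.3.3, limma 3.58.1) were run over all genes, with Benjamini-Hochberg adjustment. SE is the log2 fold change divided by the square root of F. Calls required FDR < 0.05 and over 2-fold between regions, and FDR < 0.1 and over 2-fold for sex and age stage (5 years or less called young). Replicates are animals, and the same animal gave every region by its label, so the animal was a block in region comparisons. Sex and age tests used the other factor as covariate. Exact tests used log2(CPM + 1). DESeq2 1.42.0, its size factors, the study's filter, fits with no block and leaving out each animal were the alternatives. The tests were tested on simulated data in which only well-counted genes were changed. That does not cover counts as low as those of ESR2 and PGR, or of ESR1 in most libraries. Reads of overlapping or antisense genes may be assigned to a receptor.

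The receptors, gene lists and marker lists (68 of 89 marker symbols matched) were chosen with earlier results of these data known. From each pathway list, up to 3 genes with the largest absolute log2 fold change were named among those called in the pituitary, hypothalamus or hippocampus against the cortex; the 5 genes closest in Pearson's r were named for each receptor, among genes with a mean of at least 1 CPM in a sub-region.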

Additional observations from a re-analysis of the deposited data

Results flagged for a closer look

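In each of the 80 combinations of a receptor and a region group, the highest and the lowest of the 8 animals were compared with the rest by Dixon's ratio at its 95% critical value. In 7 combinations 1 animal stood apart, and chance flags about 1 in 20 groups.

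In the cerebellum, Rhesus 4 was low for NR3C1, with 52.1 CPM where the other 7 animals had 86.7 to 103 CPM, and for NR3C2, with 7.10 CPM where the others had 20.6 to 32.8 CPM. In the hypothalamus, Rhesus 6 was high for NR3C2, with 37.2 CPM against 7.16 to 15.5 CPM, in the library with the high markers of cortical excitatory neurons. Rhesus 2 was high for PGR in the hypothalamus, with 3.53 CPM (37 counts) against 0.63 to 1.70 CPM.

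The other 3 were of ESR2 and rest on few counts. Rhesus 4 had 0.90 CPM in the amygdala (10 counts) against 0 to 0.36 CPM, Rhesus 6 had 0.72 CPM in the striatum (23 counts) against 0.13 to 0.38 CPM, and Rhesus 3 had 0 CPM in the entorhinal and perirhinal cortex against 0.29 to 0.49 CPM. The cause of none of these values was tested.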

How the results depend on the processing

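Of the values recomputed for comparisons under other settings, 330 kept their direction and their side of the threshold, 9 counts moved by over 1.5 times, 8 differences reversed and 2 passed a threshold they had missed. Of the values of single receptors and gene lists, 202 kept both and 4 passed a threshold they had missed.

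With no animal block, so without the pairing of regions by animal, the receptors called over the lobes fell from 3 to 0 and over the cortical sub-regions from 3 to 1. The block changed no other call. The shares of all genes called under the settings of this section are not given here. With the study's looser filter, 5 were called over the cortical sub-regions and 3 in the pituitary against the cortex, and DESeq2 called 1 receptor and region group pair for sex. Taking the mean over 51 sub-regions instead of 16 region groups gives the pituitary less weight. It turned the sex difference of ESR1 over the brain to -0.011. Leaving out 1 animal at a time gave 1 to 2 calls in the striatum, 2 to 3 in the pituitary and 2 to 3 in the amygdala against the cortex, 1 to 2 enriched receptors, 0 to 3 pairs for sex and 0 to 1 pairs for age. Of the differences over the brain, leaving out 1 animal gave -0.054 to 0.031 for ESR1 by age, -0.0030 to 0.29 for NR3C1 by sex and -0.076 to 0.22 for NR3C2 by sex. Without Rhesus 3 the age differences of ESR2 (range 0.032 to 0.10) and PGR (range 0.11 to 0.20) reached an exact p of 0.0286, the smallest possible. In each case the cause was not tested.

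Depth limits ESR2 and PGR most, with 3 counts or fewer in 296 and 258 of 408 libraries. ESR1, ESR2 and PGR did not pass the filter in the hippocampal, striatal and cerebellar sub-regions and were not tested there. With 4 animals of each sex, age stage and sex rest on the same 8 animals.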
